A study of Mus musculus with 2 samples.

Results

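Osteopontin, the secreted protein encoded by Spp1, and the receptor genes Cd44, Itgav, Itgb3 and Itgb5 were followed across the cell types of mouse tumours. The 5 genes were taken by symbol from the 31053 genes of the deposited count matrix, and all 5 were found there. They were chosen with their counts across these cell types in view, so their levels are given as a description, with no test.

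The matrix holds 3′ single-cell transcript counts of cells selected for CD45, the leukocyte surface marker, from tumours that MTC-Q1 cells, a mouse oral cancer line, had formed under the skin of C57BL/6 mice. One group carried MTC-Q1 miR-21 KO tumours and the other MTC-Q1 WT tumours, with 1 library per group. Mice of both groups had carried tumours for 2 weeks and had been given cisplatin, a drug that crosslinks DNA, at 5 mg/kg. The tumours were taken 72 hours after that dose, so neither group was untreated. The sources used here give neither the number and age of the mice behind each library nor whether the knockout line was 1 clone. Each barcode ends in a library number, 1 or 2, whose genotype the sources used here do not state. The libraries are named by that number, so nothing here is read as an effect of miR-21.

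Library 1 kept 4977 cells and library 2 kept 6740 cells, with medians of 6999 and 14801 unique molecular identifiers (UMIs) per cell. Mitochondrial UMIs had medians of 3.98% in library 1 and 2.09% in library 2, and 8 barcode sequences occurred in both. With 1 library per group and cells that are not replicates, no difference was tested. Every interval is an exact 95% interval for counting error alone, and UMI levels of different genes are not set against each other.

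Osteopontin is a phosphorylated protein of bone matrix that macrophages and activated lymphocytes also release. It binds integrins that pair the αv chain (Itgav) with β3 (Itgb3) or β5 (Itgb5) through an arginine-glycine-aspartate motif, and it binds CD44, the receptor for hyaluronan. In tumours Spp1 is best known as a gene of macrophages and of some cancer cells, and it is also induced in activated natural killer (NK) and T cells.

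The motif that joins the ligand to the αv integrins is written in Spp1 itself, and its coding stretch is shown for that reason. Spp1 lies on chromosome 5, plus strand, from 104435118 to 104441050 of GRCm38, the assembly also known as mm10. The stretch at chr5:104439451-104439519, read 5′ to 3′ on the plus strand of GRCm38, is coding sequence within exon 7 of 8. Capitals mark the codons for arginine, glycine and aspartate, which begin at codon 145 of 295 of the longest coding transcript in GENCODE.
Spp1 coding stretch: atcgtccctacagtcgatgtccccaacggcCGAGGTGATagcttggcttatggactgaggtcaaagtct

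The receptor genes lie elsewhere in GRCm38. Cd44 lies on the minus strand of chromosome 2, from 102811141 to 102901665, and Itgav on the plus strand of chromosome 2, from 83724397 to 83806916. Itgb3 lies on the plus strand of chromosome 11, from 104608000 to 104670476, and Itgb5 on the plus strand of chromosome 16, from 33829665 to 33949338. Of the annotated genes that overlap a member, 0 are among the genes counted in the matrix.

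Cells were placed by the summed UMIs of marker genes, none of which is a member. Macrophage-gated cells numbered 354 in library 1 and 1902 in library 2, monocyte-gated cells 159 and 876, NK-gated cells 132 and 935, and T-gated cells 3413 and 1684. Cells with almost no Ptprc, the gene for CD45, numbered 95 and 633 and are called Ptprc-low. The marker sums of the gated cells follow from the gates, which used the same genes, and are no check of the names. The 6 NK markers summed to 4810 and 4585 CPM (the UMIs of a gene per 1000000 UMIs of the class) in NK-gated cells. The 7 macrophage markers summed to 17549 and 22579 CPM in macrophage-gated cells.

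The Ptprc-low cells went against the label of the selection. Ptprc was low in them by the gate itself, at 7.70 and 9.66 CPM, against 1188 and 758 CPM in NK-gated cells. Their fibroblast list summed to 9581 and 4462 CPM, with all 6 genes detected, and their epithelial list to 41.7 and 6.15 CPM, with 5 of 7 detected. Their macrophage list summed to 45.6 and 238 CPM and their osteoclast list to 45.1 and 311 CPM, both higher in library 2. By clusters, 554 of these cells lay in cluster 8 and 59 in cluster 19. Another 41 lay in cluster 10, 23 in cluster 12 and 22 in cluster 7, where most cells had other gates. The class is thus not of 1 kind of cell by cluster. They are named by that low Ptprc alone.

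Spp1 was high in NK-gated cells, macrophage-gated cells and Ptprc-low cells of both libraries, and lower in dendritic cells and in the B-gated cells of library 1. In NK-gated cells Spp1 stood at 561 CPM (interval 529 to 595) in library 1, against 1586 CPM (1567 to 1605) in library 2. In macrophage-gated cells it stood at 328 CPM (314 to 342) and 1294 CPM (1282 to 1306). In Ptprc-low cells it stood at 621 CPM (599.7 to 642) and 574 CPM (566 to 582). The order of the leading classes thus differed: Ptprc-low cells, then NK-gated, macrophage-gated and monocyte-gated cells in library 1, and NK-gated, macrophage-gated, monocyte-gated and then Ptprc-low cells in library 2. Neighbours in these orders had intervals that did not overlap.

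Monocyte-gated cells, the blood-derived precursors of many tumour macrophages, held 162 CPM of Spp1 in library 1 and 822 CPM in library 2. Without the cell of most Spp1 UMIs in each library, which held 83 of 294 UMIs in library 1, they stood at 119 and 769 CPM. Conventional dendritic cells of type 1 (cDC1-gated) held 97.2 and 299 CPM, and those of type 2 (cDC2-gated) 15.6 and 126 CPM. In library 2 the cell with most Spp1 UMIs decided much of both, and without it they stood at 199 and 61.1 CPM. Migratory dendritic cells had 0 Spp1 UMIs in 11 cells of library 1, where 3 counts would be 19.3 CPM, and 55.3 CPM in library 2. Plasmacytoid dendritic cells (pDC-gated) had the lowest level of library 2, 18.9 CPM from 5 UMIs, and 5.29 CPM from 1 UMI in library 1. The intervals of the lowest classes overlapped, so no order is read among cDC2-gated, T-gated, pDC-gated and migratory dendritic cells in library 1, or between the last 2 in library 2. Over the 9 classes with enough UMIs in both libraries, the rank correlation of Spp1 between the libraries was 0.87, given as a description of 9 points that share their libraries' depth.

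**Figure D1:**
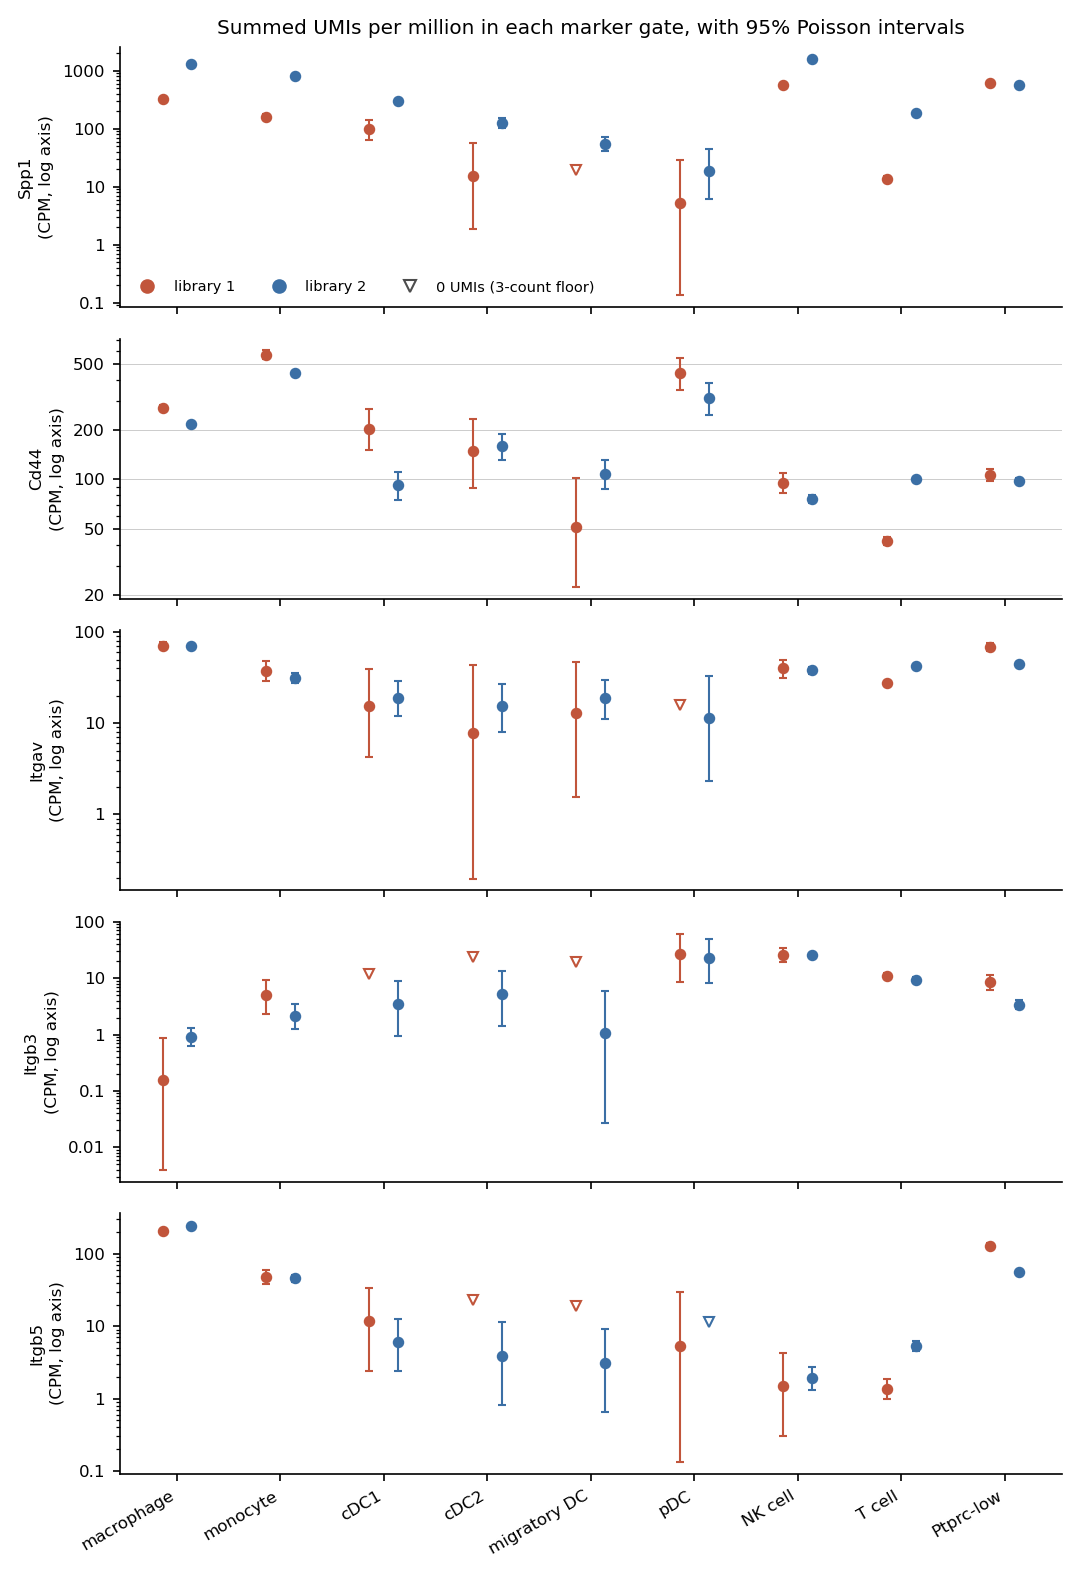
Levels of the 5 members in 9 marker gates, in CPM on log axes, library 1 in red and library 2 in blue, with 95% Poisson intervals; open triangles stand at the level of 3 counts where no UMI was found. Spp1 stands at 561 and 1586 CPM in NK-gated cells, and Itgb5 at 207 and 244 CPM in macrophage-gated cells against 1.48 and 1.92 CPM in NK-gated cells.

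Set against macrophage-gated cells, Spp1 of NK-gated cells was higher by 0.77 (0.67 to 0.88) on the log2 scale in library 1 and by 0.29 (0.27 to 0.32) in library 2, which is within 2-fold in both. In library 1, 316 of the 1139 Spp1 UMIs of NK-gated cells lay in 1 cell. Without the cell of most Spp1 UMIs in each class, library 1 had 412 CPM (384 to 441) in NK-gated and 314 CPM (300 to 328) in macrophage-gated cells, a smaller gap. Ptprc-low cells of library 1 then had 489 CPM (470 to 508). For Ptprc-low over macrophage-gated cells the log2 ratio was 0.92 (0.84 to 0.999) in library 1 and -1.17 (-1.20 to -1.15) in library 2, so the order of these classes differed between the libraries. T-gated cells lay far below macrophage-gated cells, with log2 ratios of -4.58 in library 1 and -2.78 in library 2. In library 1, 211 of the 388 Spp1 UMIs of T-gated cells lay in 1 cell, and without the cell of most Spp1 UMIs in each class the log2 ratio of macrophage-gated over T-gated cells was 5.65 in library 1 and 2.86 in library 2. A ratio is called past 2-fold here when it is at least 2-fold and its interval lies beyond 1.5-fold, with at least 100 UMIs in both classes together. Among the members with enough UMIs, T-gated over macrophage-gated cells had 1 higher and 4 lower of 5 in library 1, where 41.7% of all genes tested were past the limit in either direction, and 1 higher and 3 lower of 5 in library 2, where 34.9% were. NK-gated over macrophage-gated cells had 2 lower of 4 in library 1 (33.1% of all genes) and 1 higher and 2 lower of 5 in library 2 (39.2%).

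With all UMIs, the share of cells with a Spp1 UMI did not order the leading classes as the levels did. NK-gated cells had the higher level and the lower share of the NK-gated and macrophage-gated cells, at unlike depth. In library 1, 63.8% of macrophage-gated cells (interval 58.6 to 68.9%) had one, and in library 2 87.0% (85.4 to 88.4%), at medians of 16526 and 16854.5 UMIs per cell. Among NK-gated cells the shares were 48.5% and 80.4%, at medians of 11434.5 and 16174 UMIs, and among Ptprc-low cells 77.9% and 82.1%. When every cell was thinned to 4000 UMIs, a depth that all cells reached, the shares were 37.9% and 70.0% for macrophage-gated cells, 35.6% and 66.7% for NK-gated cells, and 54.7% and 51.5% for Ptprc-low cells. At equal depth, macrophage-gated and NK-gated cells of library 2 were thus positive more often than those of library 1, and the intervals of Ptprc-low cells overlapped. Within each library the thinned intervals of macrophage-gated cells (32.8 to 43.1% and 67.9 to 72.1%) overlapped those of NK-gated cells (27.5 to 44.4% and 63.6 to 69.8%). No order of these 2 shares is therefore read at equal depth.

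Cells that should lack Spp1 set the level of free RNA in the droplets. In library 1, 2.67% of B-gated cells had a Spp1 UMI, 12 of 450 at a median of 5016 UMIs, and library 2 held only 2 B-gated cells. Of pDC-gated cells, which were taken as the low class for both libraries after their values were seen, 5.88% were positive in library 1 and 11.8% in library 2, at medians of 11388 and 7160.5 UMIs. T-gated cells of library 1 stood at the B-gated share, with 2.67% positive at a median of 6457 UMIs, and no expression is read from it. T-gated cells of library 2 had 35.2% positive at a median of 12685 UMIs, and 17.5% after thinning.

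Free RNA, estimated in each class from markers that it should lack, made up 0.272% of the Spp1 level of NK-gated cells in library 1 and 1.16% in library 2. It made up 1.38% and 4.11% of the level in macrophage-gated cells, and 25.9% and 16.7% in T-gated cells. In B-gated cells of library 1 it made up 88.6%. A further measure set Spp1 against the C1q genes, which macrophages express and lymphocytes do not. NK-gated cells held 2649 and 1373 Spp1 UMIs per 100 C1q UMIs, against 7.19 and 15.9 over all barcodes of the same library. NK-gated cells exclude those that also passed the macrophage gate, and all barcodes are not a measure of free RNA, so the ratio is given as a description.

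**Figure D2:**
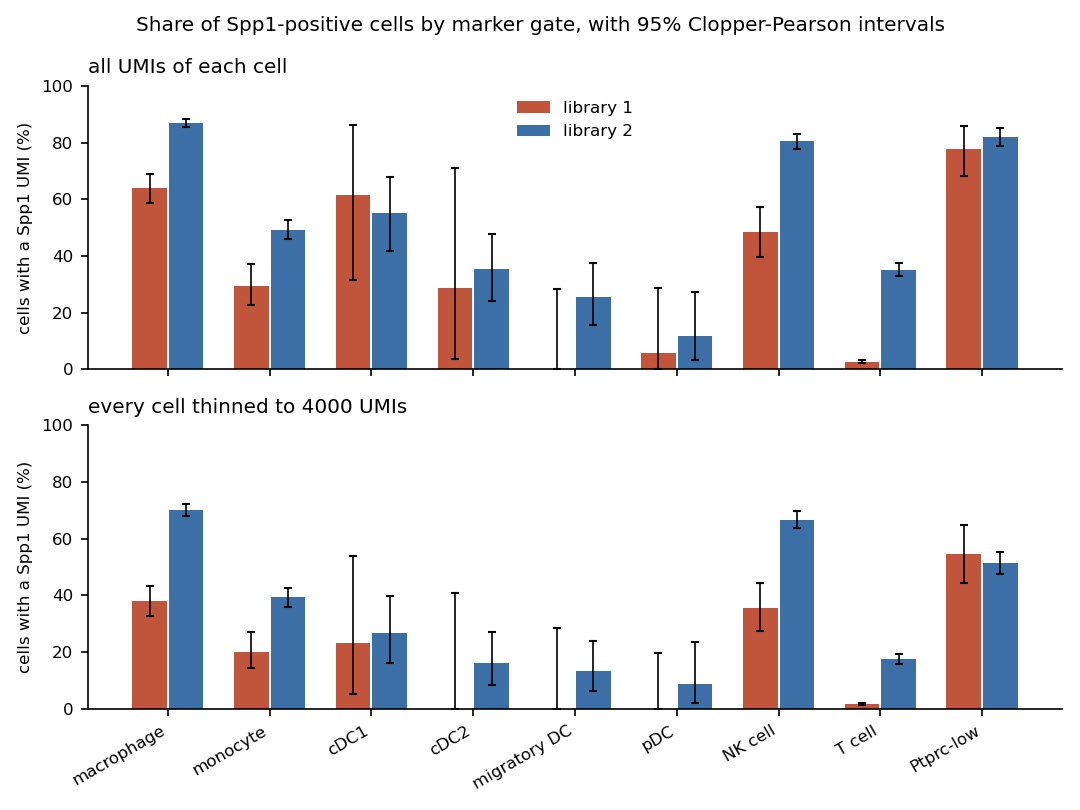
Percent of cells with at least 1 Spp1 UMI by marker gate, library 1 in red and library 2 in blue, with 95% Clopper-Pearson intervals; the upper panel uses all UMIs and the lower panel cells thinned to 4000 UMIs. Macrophage-gated cells stand at 63.8% and 87.0% above, and at 37.9% and 70.0% below.

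Within each class a minority of cells carried most Spp1. In macrophage-gated cells the 10% of cells richest in Spp1 held 63.2% of the class's Spp1 UMIs in library 1 and 52.5% in library 2. The richest 10% of NK-gated cells held 72.3% and 56.9%, and that of Ptprc-low cells 55.05% and 56.7%. The median macrophage-gated cell stood at 91.0 CPM in library 1, against 505 CPM in library 2. The median NK-gated cell had 0 CPM in library 1, against 495 CPM in library 2. The highest count in any cell was 739 UMIs in a Ptprc-low cell of library 1 and 844 UMIs in an NK-gated cell of library 2.

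**Figure D3:**
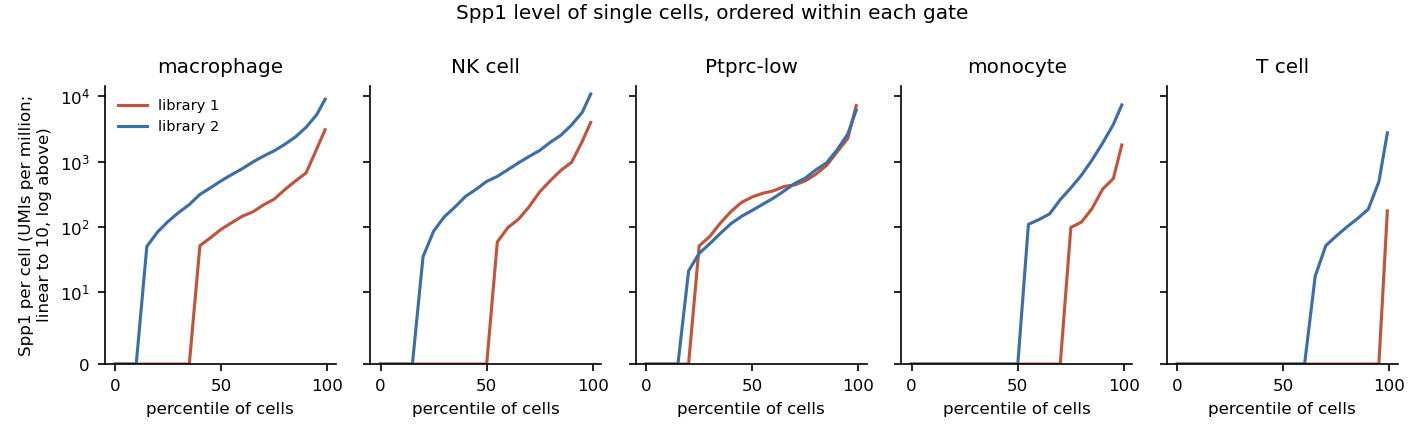
Spp1 level of single cells at each percentile of 5 gates, in CPM of the cell on an axis that is linear up to 10 and logarithmic above, library 1 in red and library 2 in blue. The median cells stand at 286 and 178 CPM in Ptprc-low cells, and at 91.0 and 505 CPM in macrophage-gated cells.

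Of all Spp1 UMIs in kept cells, 7584 in library 1 and 113521 in library 2, Ptprc-low cells supplied 43.6% and 17.8%. Macrophage-gated cells supplied 28.0% and 38.9%, and NK-gated cells 15.02% and 23.3%. These shares also carry the makeup of the libraries, since macrophage-gated cells made up 7.11% of library 1 and 28.2% of library 2, and Ptprc-low cells 1.91% and 9.39%.

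Spp1 was lower in library 1 than in library 2 in 4 of the 5 large classes. The log2 ratio of library 1 over library 2 was -1.98 (-2.04 to -1.92) in macrophage-gated cells, -2.34 (-2.51 to -2.17) in monocyte-gated cells and -1.50 (-1.59 to -1.41) in NK-gated cells. In T-gated cells it was -3.77 (-3.93 to -3.63), and -4.82 without the cell of most Spp1 UMIs in each library. T-gated cells held macrophage markers at 66.9 and 293 CPM, monocyte markers at 873 and 2486 CPM and NK markers at 69.1 and 671 CPM. The part of these markers in the ratio was not tested. The monocyte list is not particular to monocytes here, as it also stood at 1034 CPM in NK-gated and 1156 CPM in B-gated cells of library 1. In Ptprc-low cells the log2 ratio was 0.11 (0.06 to 0.17), -0.10 with median-of-ratios scaling and -0.20 without the cell of most Spp1 UMIs, so no direction is read there. Without that cell the NK-gated ratio was -1.90, as 316 of the 1139 UMIs of library 1 lay in 1 cell, and Ptprc-low cells stood at 489 and 560.0 CPM. The monocyte-gated ratio without it was -2.69 (-2.90 to -2.49).

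Of the members with at least 100 UMIs, Spp1 was the only one past 2-fold between the libraries in macrophage-gated cells, 1 of 4, where 3.77% of all 9987 genes tested were past it. It was also the only one of 4 in monocyte-gated cells, where 2.8% of all genes were past it, and the only one of 4 in NK-gated cells, where 3.74% were. In T-gated cells 3 of 5 members were lower and 0 higher, against 30.6% of all genes in either direction. In Ptprc-low cells 2 of 5, Itgb3 and Itgb5, were higher and 0 lower, against 6.59%.

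The difference in macrophage-gated cells was present in each subset that other markers defined. Cycling cells had 280.0 CPM of Spp1 in library 1 and 1350.1 CPM in library 2, with a log2 ratio of -2.27 (-2.43 to -2.11). Cells with Folr2, Lyve1 or Cbr2, genes of tissue-resident macrophages, had 500.02 and 1291 CPM (-1.37, -1.48 to -1.26). The remaining cells had 279 and 1271 CPM (-2.19, -2.28 to -2.10). Cells of the Folr2 list were 0.84 (0.71 to 0.98) above the remaining cells in library 1 and 0.02 (-0.01 to 0.05) above them in library 2.

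Spp1 in cycling NK-gated cells stood at 447 and 1195 CPM, against 600.3 and 1829 CPM in those outside the cell cycle, with a log2 ratio of cycling over not cycling of -0.42 (-0.64 to -0.22) in library 1 and -0.61 (-0.65 to -0.58) in library 2. Without the cell of most Spp1 UMIs in each, the levels of library 1 were 386 CPM in cycling and 399 CPM in other NK-gated cells, with intervals that overlapped, so no order is read in library 1. Cycling NK-gated cells were positive more often, 94.1% and 91.2% against 41.7% and 76.5%, at medians of 29142 and 24679 UMIs against 10817 and 14310.0. The higher share went with the deeper cells, and no order is read from it.

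**Figure D4:**
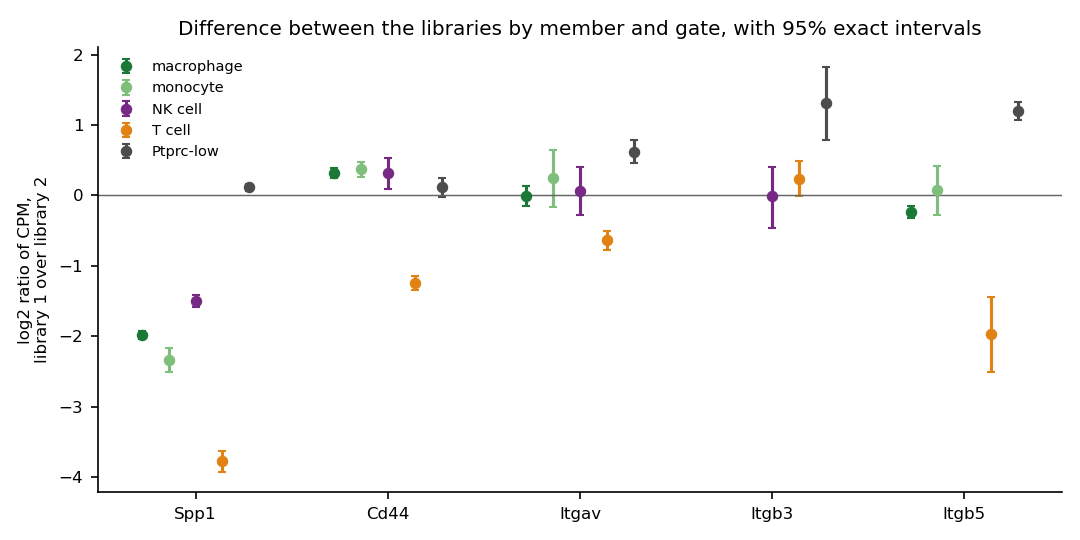
Log2 ratio of CPM, library 1 over library 2, for each member in 5 gates where the member had at least 100 UMIs, with exact 95% intervals; 0 marks equal levels. Spp1 stands at -1.98 in macrophage-gated cells and 0.11 in Ptprc-low cells, while Cd44 lies between 0.11 and 0.37 outside T-gated cells.

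The T-gated cells of the libraries were not alike, since 2755 of 3413 in library 1 and 47 of 1684 in library 2 carried the naive list, markers of naive T cells that include Ccr7, Lef1, Tcf7 and S1pr1. Within subsets, Spp1 stood at 4.71 and 203 CPM in Foxp3-positive cells, and at 13.6 and 77.9 CPM in cells of the naive list. The naive values rested on 1 cell each, with 211 of 287 UMIs in library 1 and 41 of 59 UMIs in library 2, and were 3.59 and 25.8 CPM without it. In cells of neither kind it stood at 18.3 and 190.1 CPM, with a log2 ratio of -3.38 (-3.69 to -3.08). Without the cell of most UMIs, 35 of 91 in library 1, those levels were 11.3 and 178 CPM and the ratio was -3.98. In that last subset 1 of 5 members was lower, Spp1, against 7.7% of all genes in either direction. A cluster of 262 cells that held 157 T-gated and 74 mixed cells, singled out after its values were seen, stood at 323 and 444 CPM of Spp1 with 5233 and 5570 CPM of macrophage markers. The part that macrophage RNA has in the T-gated level was not tested beyond the estimate of free RNA.

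Clustering without the members placed the highest Spp1 of library 2 in a group of myeloid cells that the gates divide. Cluster 12, singled out after its values were seen, had 792 CPM (716 to 873) in 45 cells of library 1 and 2115 CPM (2074 to 2157) in 395 cells of library 2. In library 1 a macrophage cluster of 53 cells had 666 CPM (613 to 723). The intervals overlapped, so no lead is read in library 1. There 35.6% of the cells of cluster 12 had a Spp1 UMI, against 66.0% of that macrophage cluster. Of the 440 cells of cluster 12, 169 were monocyte-gated, 169 macrophage-gated and 58 ungated. The genes that set it apart from all other cells, also chosen by their values, were, in order of fold, Mmp12, a macrophage elastase that can cut osteopontin, the neutrophil-attracting chemokine Cxcl3, the collagenase Mmp8, the cytokine Il1a and Arg1, an arginine-degrading enzyme. They are given to describe the cluster and were not tested.

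Among single NK-gated cells, granzyme genes led the genes that varied with Spp1, ranked by the weaker of the 2 libraries' correlations. Over the cells of each library, the Pearson correlation of log-scaled Spp1 with Gzmc was 0.39 in library 1 and 0.56 in library 2, and 0.33 and 0.51 after thinning to 4000 UMIs. Gzmd had 0.35 and 0.56, Gzme 0.34 and 0.52, and Tnfrsf9, the costimulatory receptor 4-1BB, 0.33 and 0.41. Ccl5, a chemokine of T and NK cells, ran the other way at -0.32 and -0.31. These are descriptions over 132 and 935 cells that share a library, and depth itself had correlations of 0.43 and 0.38 with Spp1. The NK list and the split that follows were chosen after these values were seen.

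NK-gated cells with a Gzmc UMI held 645 CPM of Spp1 (607 to 685) in 88 cells of library 1 and 1643 CPM (1623 to 1663) in 868 cells of library 2. NK-gated cells without one held 199 CPM (157 to 249) in 44 cells and 201 CPM (168 to 239) in 67 cells. The cells without Gzmc thus stood at like levels in both libraries, with intervals that overlapped. In library 1, 316 of the 1063 Spp1 UMIs of cells with Gzmc lay in 1 cell. Without the cell of most Spp1 UMIs in each set, cells with Gzmc stood at 462 CPM (429 to 496) and 1594 CPM. Cells without Gzmc then stood at 146 CPM (110 to 190) and 151 CPM (122 to 184). They were also shallower, with medians of 8353 and 8060 UMIs against 15555 and 16769. After thinning, 44.3% and 69.7% of cells with a Gzmc UMI were Spp1-positive, against 18.2% and 28.4% of those without.

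**Figure D5:**
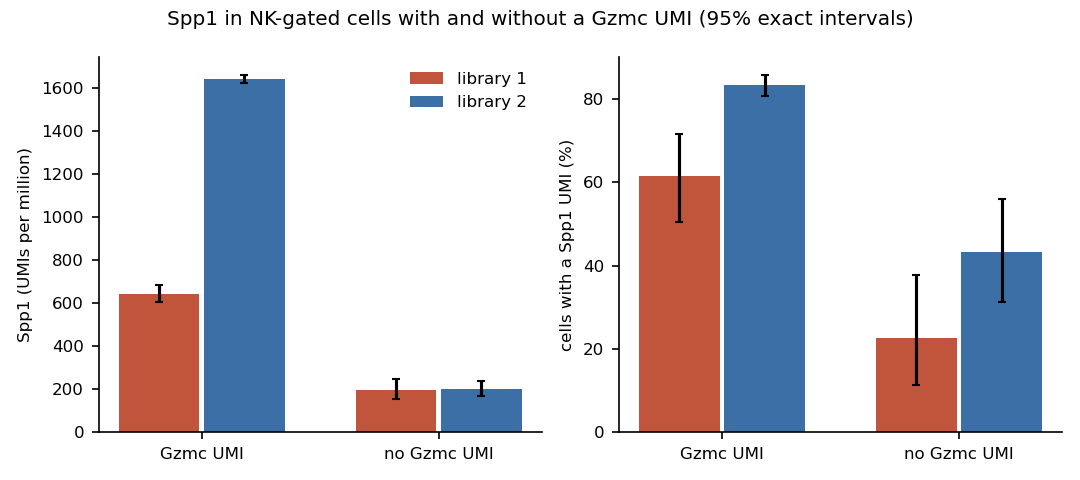
Spp1 in NK-gated cells with and without a Gzmc UMI, library 1 in red and library 2 in blue, as CPM on the left and percent of cells with a Spp1 UMI on the right, with exact 95% intervals. Cells with Gzmc stand at 645 and 1643 CPM, and cells without at 199 and 201 CPM. The value of 645 CPM includes 1 cell with 316 of the 1063 Spp1 UMIs.

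In macrophage-gated cells the correlations were weaker and are given only as values. Among 4528 genes, Cd9, a tetraspanin often seen with Spp1, ranked first with 0.28 and 0.26, and 0.15 and 0.15 after thinning. Fn1, which encodes fibronectin, had 0.20 and 0.23, Lgals1, which encodes galectin-1, 0.17 and 0.20, and Arg1 0.16 and 0.18. Syngr1, Pdpn, Mt1 and Calr completed the positive side, and Ccl5 (-0.16 and -0.18) and Pltp (-0.15 and -0.20) stood on the negative side. Trem2, a lipid receptor of tumour macrophages, had 0.25 and 0.12. Depth had 0.25 and 0.14. The receptor genes measured in macrophage-gated cells had values between -0.04 and 0.15, the highest for Itgb5 in library 1.

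Cd44, the receptor gene for hyaluronan and osteopontin, led in monocyte-gated cells. Its level there was 568 CPM (534 to 604) in library 1, against 440.0 CPM (425 to 455) in library 2, and a Cd44 UMI was found in 91.2% and 87.8% of cells. pDC-gated cells followed with 439 and 309 CPM, and in library 1 their interval overlapped that of monocyte-gated cells. Macrophage-gated cells held 271 and 217 CPM, Ptprc-low cells 106 and 98.2 CPM, and NK-gated cells 95.1 and 76.5 CPM. Monocyte-gated over macrophage-gated cells had a log2 ratio of 1.07 (0.96 to 1.18) in library 1 and 1.02 (0.96 to 1.08) in library 2. That comparison had 1 member higher, Cd44, and 2 lower of 4 in each library, against 11.5% of all genes in library 1 and 21.7% in library 2.

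Between the libraries Cd44 differed little outside T-gated cells. The log2 ratio of library 1 over library 2 was 0.32 (0.24 to 0.39) in macrophage-gated, 0.37 (0.27 to 0.47) in monocyte-gated and 0.31 (0.09 to 0.53) in NK-gated cells, all within 2-fold. In Ptprc-low cells it was 0.11 (-0.02 to 0.24). In T-gated cells, with 42.5 and 100.1 CPM, it was -1.24 (-1.33 to -1.14). Within the Foxp3-positive subset and the subset of neither kind the gap was smaller, and cells of the naive list, mostly in library 1, held the least Cd44. Cells of the naive list held 28.1 and 75.3 CPM, Foxp3-positive cells 99.9 and 145 CPM, and cells of neither kind 79.4 and 97.4 CPM with a log2 ratio of -0.29 (-0.45 to -0.14).

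Itgav encodes the αv chain, which pairs with either β chain of this set. It led in macrophage-gated cells, with 71.1 CPM (64.7 to 77.9) in library 1, against 71.3 CPM (68.5 to 74.2) in library 2. Ptprc-low cells held 68.2 and 44.3 CPM, with an interval that overlapped that of macrophage-gated cells in library 1 only. NK-gated cells held 39.9 and 38.0 CPM, monocyte-gated cells 37.6 and 31.6 CPM, and T-gated cells 27.4 and 42.6 CPM. The order of the 9 classes had a rank correlation of 0.95 between the libraries, the highest among the members.

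The log2 ratio of Itgav between the libraries was 0.00 (-0.15 to 0.14) in macrophage-gated cells and 0.07 (-0.28 to 0.40) in NK-gated cells. It was 0.62 (0.46 to 0.79) in Ptprc-low cells and -0.64 (-0.77 to -0.50) in T-gated cells, both within 2-fold. In T-gated cells of neither kind it was 0.01 (-0.22 to 0.23). The highest Itgav of any subset was in Foxp3-positive T-gated cells, regulatory T cells by that gene, with 122 CPM (108 to 138) and 93.8 CPM (80.5 to 109). Among macrophage-gated cells outside the cell cycle, those of the Folr2 list held 95.8 CPM (80.5 to 113) and 82.1 CPM (77.7 to 86.7), and the others 62.1 and 61.7 CPM. The intervals of the Folr2-list cells overlapped those of Foxp3-positive cells in both libraries, so no order is read between them.

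Itgb3 encodes the β3 chain, best known from platelets and osteoclasts. It was nearly absent from macrophage-gated cells, with 1 UMI in 354 cells of library 1 and 31 UMIs in 1902 cells of library 2, or 0.154 and 0.909 CPM. Free RNA alone was estimated at 0.309 and 0.455 CPM there. NK-gated cells held 25.6 CPM (19.1 to 33.6) and 25.9 CPM (23.5 to 28.4), and a UMI was found in 23.5% and 32.4% of them. pDC-gated cells stood level with them, at 26.4 CPM (8.58 to 61.7) and 22.6 CPM (8.31 to 49.3) from 5 and 6 UMIs. T-gated cells held 10.9 and 9.25 CPM, and NK-gated over T-gated cells had log2 ratios of 1.23 (0.78 to 1.66) and 1.48 (1.25 to 1.72).

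The level of Itgb3 in NK-gated cells did not separate the libraries, with a log2 ratio of -0.01 (-0.46 to 0.40). In T-gated cells it was 0.24 (-0.01 to 0.48). In Ptprc-low cells Itgb3 stood at 8.45 and 3.40 CPM, a log2 ratio of 1.31 (0.79 to 1.82). Collagen-rich Ptprc-low cells, which made up 45 of 95 cells in library 1 and 72 of 633 in library 2, held 14.9 and 19.98 CPM, and the other Ptprc-low cells 4.53 and 2.13 CPM. Within each of these subsets, 0 of the 4 members tested were past 2-fold, against 4.87% of all genes in collagen-rich cells and 3.41% in the others; Itgb3 had under 100 UMIs in both. In naive-list T-gated cells of library 1, Itgb3 stood at 20.7 CPM (16.7 to 25.2) in those with Cd4 and 6.17 CPM (4.80 to 7.83) in those with Cd8a or Cd8b1.

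Itgb5 encodes the β5 chain, which pairs only with αv. Among the 9 classes it led in macrophage-gated cells, with 207 CPM (196.5 to 219) in library 1, against 244 CPM (239 to 249.8) in library 2, and a UMI in 85.3% and 89.3% of cells. Ptprc-low cells held 129 and 56.4 CPM, with a UMI in 89.5% and 70.1% of these deeper cells, and monocyte-gated cells 48.6 and 46.0 CPM. The collagen-rich Ptprc-low cells of library 1 stood above macrophage-gated cells, at 256 CPM (234 to 279). NK-gated cells held 1.48 and 1.92 CPM, from 3 and 32 UMIs, against a free RNA estimate of 0.474 and 1.92 CPM. NK-gated over macrophage-gated cells had log2 ratios of -7.13 (-9.41 to -5.58) and -7.00 (-7.54 to -6.50). NK-gated and macrophage-gated cells were therefore opposite in their β chains, Itgb3 in NK-gated and Itgb5 in macrophage-gated cells, in both libraries.

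In macrophage-gated cells the log2 ratio of Itgb5 between the libraries was -0.24 (-0.32 to -0.15), within 2-fold. In Ptprc-low cells it was 1.20 (1.07 to 1.33). Collagen-rich Ptprc-low cells held 256 and 149.9 CPM and the others 52.8 and 49.2 CPM, and the collagen-rich share of the gate was also the higher in library 1; its part in the ratio was not tested. Ptprc-low over macrophage-gated cells had 1 member lower of 4 in library 1, Cd44, where 43.7% of all genes were past 2-fold, and 1 higher and 3 lower of 5 in library 2, where 48% were.

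Counted by cell, the receptor pairs of macrophage-gated and NK-gated cells followed the β chains. Itgav and Itgb5 were detected together in 52.5% and 56.6% of macrophage-gated cells and in 77.9% and 58.0% of Ptprc-low cells, which were the deepest. After thinning the order was reversed, with 11.3% and 13.7% of macrophage-gated cells against 6.32% and 2.37% of Ptprc-low cells. Itgav and Itgb3 were detected together in 12.1% and 15.9% of NK-gated cells, in 16 of 132 and 149 of 935. After thinning, 1.52% and 1.71% of NK-gated cells had both. Ptprc-low cells had both in 29.5% and 8.85%, in 28 of 95 and 56 of 633. As Ptprc-low cells were deeper, no order against NK-gated cells is read for this pair. Macrophage-gated cells with both numbered 0 and 18. By the limit of 3 counts, 0 of 354 allows up to 0.847% of cells with a UMI of both, which is no limit on cells expressing both. Spp1 and a receptor, meaning Cd44 or Itgav with either β chain, were found in the same cell in 60.2% and 80.4% of macrophage-gated cells, 36.4% and 58.1% of NK-gated cells and 77.9% and 77.3% of Ptprc-low cells. Joint detection was close to the product of the separate shares in macrophage-gated cells for Spp1 with Cd44, at 57.3% against 57.0% in library 1 and 75.3% against 73.9% in library 2. For Spp1 with Itgb5 it was 57.1% against 54.5% and 78.8% against 77.7%. In NK-gated cells joint detection stood further above the product. Spp1 with Itgb3 had 16.7% against 11.4% and 29.1% against 26.1%, and Itgav with Itgb3 12.1% against 7.83% and 15.9% against 13.7%. Cells of unlike depth were pooled in these shares.

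The other receptors of osteopontin had leading classes of their own. Itga4, the α4 chain, led in migratory dendritic cells with 638 and 478 CPM. Itgb1, the β1 chain that pairs with it, led in NK-gated cells with 540.3 and 393 CPM. Itga5 led in Ptprc-low cells with 75.7 and 60.5 CPM, and Itga9, whose product binds a site next to the arginine-glycine-aspartate motif, in macrophage-gated cells with 15.3 and 16.9 CPM. All 4 of these genes, which were the ones of this list of 7 over 10 CPM in both libraries, had the same leading class in each. Of the members, 3 of 5 did: Cd44, Itgav and Itgb5.

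The secreted relatives of osteopontin were almost absent, with 0 UMIs of Ibsp, Mepe and Dspp in every gated class and at most 0.376 CPM of Dmp1. Of the enzymes that cut osteopontin, the matrix metalloproteinases Mmp9 and Mmp3 led in Ptprc-low cells. Mmp9 stood at 203 and 127 CPM and Mmp3 at 54.1 and 46.6 CPM in Ptprc-low cells, and both stood at or under 2.82 CPM in macrophage-gated and NK-gated cells. Tgm2, a transglutaminase that crosslinks osteopontin, led in monocyte-gated cells with 314 and 209 CPM. Of the other ligands of αv integrins, several were led by Ptprc-low cells, Postn with 1555 and 326 CPM, Tnc with 178 and 102 CPM and Mfge8 with 141 and 149 CPM, whereas Thbs1 led in monocyte-gated cells with 761 and 1126 CPM and Adam15 in macrophage-gated cells with 119 and 150.4 CPM. Fn1 led in Ptprc-low cells of library 1, with 1552 CPM against 484 CPM in macrophage-gated cells, and in macrophage-gated cells of library 2, with 927 CPM against 521 CPM in Ptprc-low cells.

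A further list of genes was drawn up beside Spp1 for tumour macrophages. Between the libraries it differed in both directions in macrophage-gated cells and in 1 direction in NK-gated cells. In macrophage-gated cells, with library 1 over library 2, 2 of 16 were higher and 2 lower, where 3.77% of all genes were past 2-fold in either direction, with a median log2 ratio of -0.29 against 0.05 over all genes tested. Cxcl9, an interferon-induced chemokine, stood at 649 and 194 CPM and Gpnmb at 15.3 and 4.81 CPM. Hilpda, a hypoxia-induced lipid droplet gene, stood at 22.1 and 64.8 CPM and Folr2 at 92.2 and 253 CPM. These genes did not all run with Spp1 over single macrophage-gated cells. Their correlations with it were -0.12 and -0.10 for Cxcl9, 0.02 and 0.01 for Folr2, and -0.03 and 0.08 for Hilpda. The counts and the median of this list thus do not describe a set that moves with Spp1. In NK-gated cells 0 of 12 tested were higher and 5 lower, where 3.74% of all genes were past 2-fold, with a median of -1.01 against 0.12 over all genes. Of those 5, Lgals3 had 214 and 673 CPM, while Apoe and Arg1 are led by macrophage-gated cells and Cd63 and Ccl2 by Ptprc-low cells; Arg1, Cd63 and Ccl2 had at most 5 UMIs in library 1. The macrophage markers stood at 23.6 and 147 CPM in NK-gated cells, and their part in that count was not tested.

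The remaining lists in macrophage-gated cells are read against the same 3.77% of all genes. Of 4 other receptor genes tested, 0 were past 2-fold either way (median log2 ratio -0.16), of 5 other αv ligands 0 were (-0.33), and of 9 integrin activators and effectors 0 were (0.12). Of 8 CD44 ligands and partners 1 was higher, Cd74, with 13142 and 2935 CPM. Of 5 osteopontin enzymes 2 were higher, Mmp12 with 55.3 and 13.8 CPM and Acp5, a phosphatase of osteopontin, with 149.99 and 70.6 CPM, and Mmp9 was lower with 0.772 and 2.82 CPM.

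Across the 18 points of 9 classes in each library, the genes whose profile was most like that of each member were ranked among 7422 genes by the Pearson correlation of log2(CPM + 1). For Spp1 they were Lmna (0.89), Tnfsf12 (0.88), Bag1 (0.87) and Tspan4 (0.87). For Cd44 they were Sh2b2 (0.92), Tmbim6 (0.91), Zeb2 (0.89), Prdx5 (0.89) and Aldh2 (0.88). For Itgav they were Luzp1, Utp6, Ddx58, Samd1 and Wdr3, between 0.88 and 0.92. For Itgb3 they were Hsd11b1 (0.92), Paxx, Emid1, Sla2 and Tmem163, and for Itgb5 Tmem119 (0.96), Ang, Ctnnd1, Lhfpl2 and Nfic. Among the members, Spp1 was nearest to Itgav (0.70) and Itgb5 (0.63) and far from Cd44 (0.12) and Itgb3 (0.14). The points share libraries and depth, and these values describe likeness only.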

How the data were processed

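Raw UMI counts of both libraries were deposited as 1 matrix, with software version 3.1.0 per the file headers, and Cell Ranger and mm10 per the submitters' processing notes. The sources used here do not state the annotation, the cell calling or any subsampling. The library of a cell was read from its barcode suffix. The members, lists and tests were chosen with earlier results of these data known, and gate limits were set on markers after the files were read.

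Cells needed 200 genes, 500 UMIs and at most 10% mitochondrial UMIs. The Scrublet threshold (scanpy 1.11.5, expected rate 0.06) marked 0.0%, so the top 5% by score, 266 and 360 barcodes, were removed. Gates used summed marker UMIs per 10000. Cells of several lineages, or of the fibroblast gate without low Ptprc, were called mixed (283 and 199). These and cells of no gate (43 and 280) were left out of classes. Counts were summed per class. Intervals are Poisson for CPM, Clopper-Pearson for shares and conditional binomial for ratios (scipy 1.17.1). Leiden clusters (2000 variable genes without the members, 30 components, 15 neighbours, resolution 1) were an alternative, as were doublets kept, 5% mitochondrial UMIs, limits raised 2 times, deeper cells, thinning, the cell of most Spp1 UMIs left out, free RNA subtraction, per-cell means, median-of-ratios and edgeR 4.0.16 TMM scaling. Ratio calls and intervals were tested on simulated data. All 5 members, 65 genes of 7 lists, and the genes most like each member may be named; others were chosen after their values were seen, and some items are not reported here. Intervals cover counting error only.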

Additional observations from a re-analysis of the deposited data

Results flagged for a closer look

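For 4 members, the log2 ratio of library 1 over library 2 was above 0 in 1 class and below 0 in another, each from a single pair of libraries; the difference between the classes was not tested. Spp1 had 0.11 in Ptprc-low cells, where other settings gave values below 0 and no direction is read, and -3.77 in T-gated cells, and -3.38 in T-gated cells that were neither naive nor Foxp3-positive. Cd44 had 0.37 in monocyte-gated cells and -1.24 in T-gated cells, and -0.29 in T-gated cells of neither kind. Itgav had 0.62 in Ptprc-low cells and -0.64 in T-gated cells, and 0.01 in T-gated cells of neither kind. Itgb5 had 1.20 in Ptprc-low cells and -1.96 in T-gated cells, where it rested on 39 and 143 UMIs, and -0.54 (-1.32 to 0.16) in T-gated cells of neither kind. Among Ptprc-low cells, Itgb5 had 0.77 in collagen-rich cells and 0.10 in the others, and Itgav had 0.50 and 0.39.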

How the results depend on the processing

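No value changed its call of direction for Spp1 in macrophage-gated or NK-gated cells under the settings tried; the settings for NK-gated and Ptprc-low cells, and leaving out the cell of most Spp1 UMIs of each class and library, were chosen after seeing the data. In macrophage-gated cells the log2 ratio of library 1 over library 2 was -2.13 after thinning, -2.09 (mean of per-cell CPM), -2.07 (median-of-ratios scaling) and -2.07 (TMM scaling), and within counting error under 7 other settings. In NK-gated cells it was -1.23 with stricter gates, -1.65 with Leiden classes, -1.41 in cells of at least 10000 UMIs, -1.59 thinned, -1.63 as a mean of per-cell CPM, -1.70 with median-of-ratios and -1.70 with TMM scaling, and -1.90 without the cell of most Spp1 UMIs. In Ptprc-low cells it was 0.0020 thinned, 0.17 with free RNA subtracted, 0.043 as a mean of per-cell CPM, -0.10 with median-of-ratios and -0.089 with TMM scaling, and -0.20 without the cell of most Spp1 UMIs; both scalings shift all genes of the gate by -0.22 and -0.20, those of NK-gated cells by -0.20 and -0.20, and those of macrophage-gated cells by -0.09 and -0.09. Spp1 of macrophage-gated over T-gated cells was 5.48 in library 1 and 3.27 in library 2 with stricter gates, 5.33 and 3.04 with Leiden classes, 3.61 and 2.64 in cells of at least 10000 UMIs, 4.96 and 3.16 thinned, 4.99 and 2.99 with free RNA subtracted, 5.02 and 3.16 as means of per-cell CPM, 5.65 and 2.86 without the cell of most Spp1 UMIs, and 2.58 in library 2 with doublets kept. NK-gated over T-gated cells was 6.22 and 3.30 with stricter gates, 6.01 and 3.41 with Leiden classes, 4.49 and 2.99 in deeper cells, 5.64 and 3.30 thinned, 5.78 and 3.32 with free RNA subtracted, 5.57 and 3.26 as means of per-cell CPM, 6.04 and 3.12 without the cell of most Spp1 UMIs, and 2.87 in library 2 with doublets kept. The Spp1-positive share of macrophage-gated cells was 69.0% and 89.7% in cells of at least 10000 UMIs and 37.9% and 70.0% thinned. Genes past 2-fold in macrophage-gated cells numbered 377 of those with at least 100 UMIs, 584 with at least 10 UMIs, 638 without a minimum and 371 with median-of-ratios scaling. No paired analysis was possible because each group has 1 library and the labels give no replicate numbers. The cause of these shifts was not tested, and differences of genotype, library depth, dissociation and cell makeup cannot be told apart.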

Other observations

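Cells outside the named classes also held Spp1. Ungated cells, which passed no marker gate, stood at 152 CPM (120.2 to 190) in 43 cells of library 1, against 1429 CPM (1396 to 1462) in 280 cells of library 2. Mixed cells passed gates of more than 1 lineage, or the fibroblast gate without low Ptprc. They stood at 54.1 CPM (47.1 to 62.0) in 283 cells and 587 CPM (567 to 607) in 199 cells. Both sets were left out of every comparison.

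In library 1, naive-list T-gated cells with Cd4 held 3.66 CPM and those with Cd8a or Cd8b1 held 4.09 CPM, and B-gated cells 6.93 CPM. The intervals of the 3 values overlapped.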
